A study of Mus musculus with 16 samples.

Results

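The genes described here encode the auxiliary subunits of voltage-gated calcium channels and the related AMPA receptor proteins called TARPs, measured in the mouse brain cortex. They are the 4 beta subunit genes Cacnb1, Cacnb2, Cacnb3 and Cacnb4, 3 alpha2delta genes, Cacna2d1, Cacna2d2 and Cacna2d3, and 3 TARP genes, Cacng2, Cacng3 and Cacng8. The set was defined by gene name, with no measured value in the rule, but it was chosen with earlier results of these data known. All 10 had a row among the 22880 gene rows of the deposited table and passed the filter on low values in every comparison.

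Total RNA of the cortex was sequenced from 16 single mice, F1 animals of C57Bl6/J crossed with Sv129, collected at zeitgeber time 4 h. In KO_SD, BK-deficient mice were kept awake for 4 h from light onset by gentle handling, and in KO_BL, BK-deficient mice were left undisturbed as the baseline. In WT_SD, wild type littermates were kept awake in the same way, and in WT_BL, wild type littermates were left undisturbed. Each group held 4 mice, and a number after the group name marks a single mouse. Kcnma1 encodes the pore of BK, a potassium channel that calcium and depolarisation open together. All mice lived in pairs under the same light cycle, and the labels do not say which mice shared a cage or a litter, how old they were, or which part of Kcnma1 the knockout allele lacks.

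A high-voltage-activated calcium channel is a pore protein joined by a beta subunit inside the cell and an alpha2delta subunit on the outer face. Beta subunits bring the pore to the membrane and tune its gating, and alpha2delta subunits raise the number of channels at presynaptic terminals. TARPs share the gamma fold of a calcium channel subunit of muscle, but in cortex they carry AMPA-type glutamate receptors to the synapse and slow their closing. BK channels open on the calcium that these channels admit.

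The alpha2delta genes, which include the member with the smallest p for sleep deprivation, are shown here by sequence before their transcription start, from RefSeq on GRCm38.p6. The stretches of Cacna2d1 (chr5:15934441-15934690, plus strand) and Cacna2d3 (chr14:29721865-29722114, minus strand) are the 250 bases before the start, and hold no annotated exon of the gene. The stretch of Cacna2d2 (chr9:107399727-107399755, plus strand) is 29 bases around a single match. It lies before the RefSeq start but inside the gene as GENCODE annotates it, from 107399612. Capitals mark the letters GCGTGGGCG or GCGGGGGCG on either strand, the letters bound by Egr proteins, which neurons make in response to activity.
Cacna2d1: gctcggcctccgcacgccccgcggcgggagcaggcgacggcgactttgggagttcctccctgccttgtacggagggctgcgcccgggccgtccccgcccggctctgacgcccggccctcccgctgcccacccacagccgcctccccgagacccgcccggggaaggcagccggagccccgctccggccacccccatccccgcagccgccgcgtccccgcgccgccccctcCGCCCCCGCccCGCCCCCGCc
Cacna2d2: cgtgaccgcgGCGGGGGCGcgcggaggcg
Cacna2d3: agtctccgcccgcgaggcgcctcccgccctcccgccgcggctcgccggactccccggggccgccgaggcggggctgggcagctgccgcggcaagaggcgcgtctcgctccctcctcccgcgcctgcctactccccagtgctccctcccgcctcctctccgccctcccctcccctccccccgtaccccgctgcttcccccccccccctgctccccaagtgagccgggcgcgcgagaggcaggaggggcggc
Both matches of Cacna2d1 lie next to the start, and the stretch of Cacna2d3 holds none. In windows from 250 bases before to 50 bases after each start, 2 of the 15 windows of the 10 members held these Egr letters, those of Cacna2d1 and Cacna2d2, as did 3.47% of all 32851 windows. The letters of a cyclic AMP response element (TGACGTCA) were in 0 member windows and 1.79% of all windows, those of AP-1 (TGACTCA or TGAGTCA) in 0 and 5.20%, and those of an E-box (CACGTG) in 0 and 7.15%. The GC box letters GGGCGG, which overlap some of the Egr matches, were in 8 member windows and 35.7% of all windows. Both strands were searched for each, and a match is a match of letters only. Each alpha2delta window was rich in CpG dinucleotides, with 42 in Cacna2d1, 43 in Cacna2d2 and 41 in Cacna2d3, against a median of 7 over all windows. The TARP windows held fewer, with 20 in Cacng2, 9 in Cacng3 and 2 in Cacng8. The beta windows varied, with 34 and 3 in Cacnb1, 35 and 4 in Cacnb2, 7 and 29 in Cacnb3, and 40, 27 and 5 in Cacnb4.

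Sequencing depth, recovered from the deposited values, ran from 15.9 to 30.5 M reads in KO_SD, 8.76 to 27.1 M in KO_BL, 14.3 to 25.5 M in WT_SD and 17.8 to 24.2 M in WT_BL. KO_SD 1 and KO_SD 4 stood apart in composition. The median log2 deviation of genes over 4000 bases exceeded that of genes under 1500 bases by 0.41 in KO_SD 1 and by -0.60 in KO_SD 4, against -0.26 to 0.25 in the other 14 libraries. The median deviation of genes above a GC fraction of 0.55 minus that of genes below 0.45 was -0.69 in KO_SD 1 and -0.46 in KO_BL 1, the shallowest library. Values without KO_SD 1 and KO_SD 4 are given where they differ most from those with them. Kcnma1 had 2004, 1113, 801.5 and 432.2 normalized counts in KO_SD 1 to 4 and 2156, 1425, 2047 and 1600 in KO_BL 1 to 4. It had 1108, 822.7, 912.3 and 1583 in WT_SD 1 to 4 and 1779, 1317, 1889 and 1151 in WT_BL 1 to 4. Libraries labelled knockout differed from those labelled wild type in Kcnma1 by 0.24 ± 0.178 (SE, log2) at baseline and by -0.19 ± 0.39 after sleep deprivation, with limma adjusted p = 0.982 and 1, and the second was 0.18 without KO_SD 4. A count over the whole gene takes in reads from outside a deleted part, so it does not check the genotype labels. All genotype differences below rest on the labels. Defining markers of cortical excitatory neurons were present in every group, and none of the 10 genes was at 0 in all libraries of a group. Their summed normalized counts were 33966 to 40475 in KO_SD, 35201 to 48316 in KO_BL, 36622 to 38374 in WT_SD and 40287 to 43831 in WT_BL.

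The members spanned a 7.38-fold range of level, compared per length as FPKM (fragments scaled to transcript length and to the size of the library). Averaged over the 16 libraries, the beta subunit gene Cacnb3 was highest at 103 ± 15.3 FPKM (SD, n = 16), followed by the TARP gene Cacng3 at 95.003 ± 9.18, Cacna2d1 at 82.4 ± 12.6 and Cacnb1 at 79.7 ± 12.0. Cacnb4 stood in the middle at 53.6 ± 11.3 FPKM. Below it were Cacna2d3 at 28.8 ± 4.79, Cacnb2 at 24.4 ± 2.92, Cacng8 at 21.6 ± 3.77, Cacng2 at 18.8 ± 2.19 and Cacna2d2 at 14.0 ± 4.14 FPKM. Between neighbours in this order, the gap was larger than the sum of the SDs at Cacnb1 over Cacnb4 and at Cacnb4 over Cacna2d3. Cacnb4 exceeded Cacna2d3 in 16 of 16 libraries, and Cacnb1 exceeded Cacnb4 in 14 of 16. For the other neighbours the gap was within the sum of the SDs, although Cacna2d3 exceeded Cacnb2 in 15 and Cacng2 exceeded Cacna2d2 in 14 of 16 libraries.

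**Figure D1:**
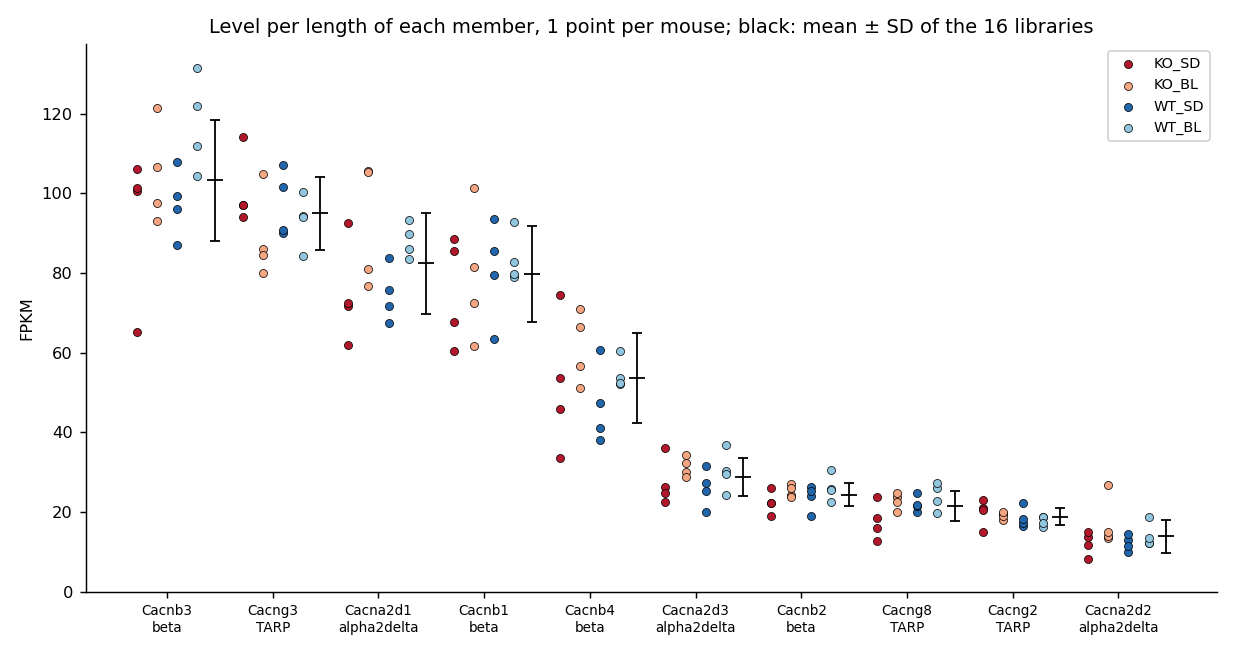
Level per length (FPKM, vertical axis) of each member, ordered from the highest mean to the lowest, with 1 point per mouse coloured by group and the mean ± SD over 16 libraries in black. Cacnb3, at 103 FPKM, and Cacng3, at 95.003 FPKM, lead the order, and Cacna2d2, at 14.0 FPKM, is lowest.

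Of the summed FPKM of the 4 beta genes, Cacnb3 made up 38.3% ± 7.41 in KO_SD, 38.6% ± 1.78 in KO_BL, 39.2% ± 1.76 in WT_SD and 41.6% ± 2.61 in WT_BL (SD, n = 4 each). Cacnb1 came next with means of 29.1 to 32.3%, and in KO_SD 1 Cacnb4 (33.0%) was above Cacnb3 (28.9%). Of the 3 alpha2delta genes, Cacna2d1 made up 65.2% ± 2.71 in KO_SD, 65.2% ± 5.50 in KO_BL, 66.2% ± 3.99 in WT_SD and 66.6% ± 3.39 in WT_BL. Of the 3 TARP members, Cacng3 made up 73.0% ± 3.31 in KO_SD, 67.8% ± 2.33 in KO_BL, 70.5% ± 2.52 in WT_SD and 69.1% ± 2.81 in WT_BL. That sum leaves out gamma genes outside the set, such as Cacng7 and Cacng4. Cacng7 averaged 72.9 FPKM in KO_SD, 81.4 in KO_BL, 83.4 in WT_SD and 87.5 in WT_BL. Cacng4 averaged 15.6, 18.4, 15.4 and 18.8 FPKM in the same order. For Cacnb3 and Cacna2d1 these shares overlapped between the groups. For Cacng3 the KO_SD range, 70.7 to 77.8%, lay above the KO_BL range, 64.9 to 70.01%, and the other pairs of groups overlapped. The share of Cacng8 was 12.7% ± 2.02 in KO_SD, with 10.2 to 14.7% over its 4 mice, and 17.5% ± 1.42 in KO_BL, with 16.1 to 19.2%. In WT_SD it was 15.97% ± 0.98, with 14.8 to 17.2%, and in WT_BL 17.8% ± 2.16, with 15.1 to 20.2%. The range of KO_SD for Cacng8 thus lay below those of the other 3 groups, while WT_SD and WT_BL overlapped. The margin to WT_SD was narrow, 14.72% in KO_SD 2 against 14.79% in WT_SD 2. The lowest KO_SD shares were 11.9% in KO_SD 1 and 10.2% in KO_SD 4, the libraries that stood apart in composition. These shares were described without a test and without a like measure over all genes. Within a family a higher share of 1 gene means a lower share of the others, so they are not independent.

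Sleep deprivation was compared with undisturbed rest within each genotype and over both. After sleep deprivation, 8 of the 10 members had a lower mean log2 value and 2, the TARP genes Cacng2 and Cacng3, a higher one, in the BK-deficient and in the wild type mice alike. None of these differences passed the test. The counts called at an adjusted p below 0.05 by limma, with Benjamini-Hochberg adjustment over all genes, were 0 of 10 members in BK-deficient mice, where 33 of 14318 genes (0.23%) were called. They were 0 of 10 in wild type mice, where 194 of 14310 genes (1.36%) were called, and 0 of 10 over both genotypes, where 1705 of 14604 genes (11.7%) were called. At an unadjusted p below 0.05, the counts were 0 members in BK-deficient mice (12.3% of all genes), 2 in wild type mice (17.4%) and 4 over both (28.4%), all lower. Groups did not overlap for 0 members in BK-deficient mice (8.23% of all genes) and 0 in wild type mice (10.3%). edgeR's quasi-likelihood test on recovered reads called 0 members in each of the 3. DESeq2 called 0, 0 and 1, the last being Cacna2d1 over both genotypes. In the authors' deposited table, 0 members were below a false discovery rate of 0.05 in either genotype, and the smallest rate was 0.3793 for Cacna2d2 in BK-deficient and 0.1155 for Cacna2d1 in wild type mice.

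The median log2 difference of the 10 members was -0.19 in BK-deficient mice, -0.17 in wild type mice and -0.21 over both, while the median of all genes tested was within 0.01 of 0 in each. The 2 comparisons share no library, and all 10 members had the same sign in both, as did 11083 of the 14163 genes tested in both (78.3%). A lower value in both was found for 8 of 10 members and for 39.3% of all genes. In bulk tissue, fewer cells of a type and less RNA per cell cannot be told apart. Each library came from 1 mouse, so the p-values measure the spread between mice.

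**Figure D2:**
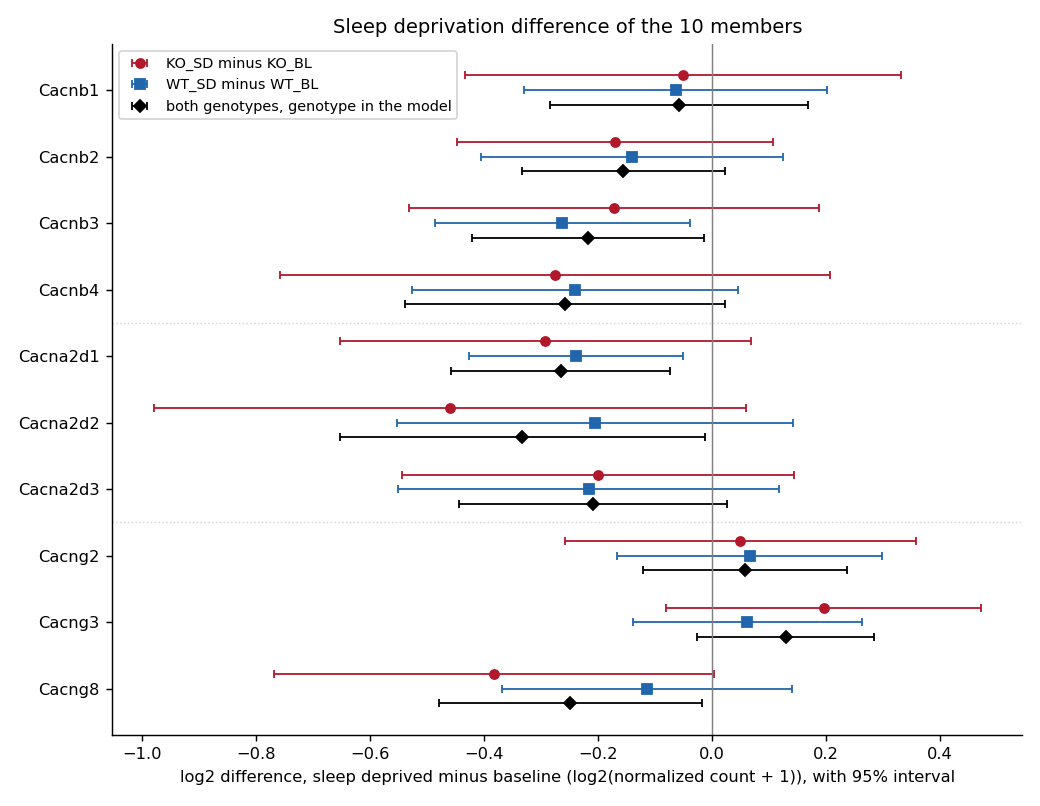
Log2 difference of each member, sleep deprived minus baseline, with its 95% interval (horizontal axis, log2(normalized count + 1)) in BK-deficient mice (red), wild type mice (blue) and both with genotype in the model (black). Cacna2d1 is lower by -0.29, -0.24 and -0.27, and Cacng3 lies right of 0 in all 3.

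The beta subunit genes are taken first. Cacnb4, mutated in the ataxic and epileptic lethargic mouse, had 8054, 5642, 4809 and 3584 normalized counts in KO_SD 1 to 4 and 7526, 5853, 7007 and 5444 in KO_BL 1 to 4. It had 4894, 4037, 4305 and 6524 in WT_SD 1 to 4 and 5688, 6210, 5646 and 5416 in WT_BL 1 to 4. The KO_SD mice spanned the whole range of KO_BL and beyond, and in WT_SD 3 of 4 mice lay below all 4 WT_BL mice, with WT_SD 4 above them. The log2 difference of Cacnb4 was -0.28 ± 0.219 (SE) in BK-deficient mice, -0.24 ± 0.131 in wild type mice and -0.26 ± 0.133 over both, with limma adjusted p = 0.621, 0.365 and 0.213. Without WT_SD 4 the wild type value of Cacnb4 was -0.38 with limma adjusted p = 0.042, in a range of 0.042 to 0.695 over 21 alternatives. Without KO_SD 1 its value over both genotypes was -0.35 with limma adjusted p = 0.0448, in a range of 0.0448 to 0.366 over 30.

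Cacnb3, whose protein is common in cortical neurons and pairs with N-type pores, had 3552, 5328, 5346 and 5717 normalized counts in KO_SD 1 to 4 and 4971, 5079, 5675 and 6499 in KO_BL 1 to 4. It had 4540, 5746, 5062 and 5374 in WT_SD 1 to 4 and 5974, 5401, 7156 and 6360 in WT_BL 1 to 4. KO_SD 1 was the lowest of the 16 mice, and the groups overlapped in both genotypes, in wild type by WT_SD 2 above WT_BL 2. Cacnb3 differed on the log2 scale by -0.17 ± 0.163 (SE) in BK-deficient mice, -0.26 ± 0.102 in wild type mice and -0.22 ± 0.0968 over both. The limma adjusted p of Cacnb3 was 0.689, 0.214 and 0.149, with an unadjusted p of 0.0251 in wild type mice. Without KO_SD 1 and KO_SD 4 the difference in BK-deficient mice was -0.05.

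Cacnb1, the gene of the skeletal muscle beta subunit that brain also expresses, had 2169 to 3102 normalized counts in KO_SD, 2178 to 3585 in KO_BL, 2185 to 3291 in WT_SD and 2704 to 3337 in WT_BL. Its log2 difference was -0.05 ± 0.173 (SE) in BK-deficient mice, -0.06 ± 0.121 in wild type mice and -0.06 ± 0.108 over both (limma adjusted p = 0.929, 0.83 and 0.767). The sign of Cacnb1 turned in BK-deficient mice without KO_BL 4 (0.08), without KO_SD 1 (0.04) and without KO_SD 1 and KO_SD 4 (0.15). It turned in wild type mice without WT_SD 1 (0.05) or WT_BL 3 (0.000727), and over both without KO_BL 4 (0.0022). Cacnb2, the beta subunit of heart and brain, had 761.8 to 1055 normalized counts in KO_SD, 941.5 to 1074 in KO_BL, 758.6 to 1024 in WT_SD and 876.1 to 1214 in WT_BL. The groups of Cacnb2 overlapped in both genotypes. Its log2 difference was -0.17 ± 0.126 (SE), -0.14 ± 0.121 and -0.16 ± 0.0845 in the same order (limma adjusted p = 0.594, 0.583 and 0.238). The summed FPKM of the 4 beta genes was 243 ± 19.9 in KO_SD and 270.5 ± 19.99 in KO_BL, with ranges that overlapped (226 to 265 and 252 to 298). It was 249 ± 17.8 in WT_SD, with 224 to 265 over its mice, and 282 ± 13.8 in WT_BL, with 270 to 302, so that the wild type ranges did not overlap. Each of the 4 beta genes alone did overlap there, and 10.3% of all single genes did not. The sum was not tested, and no like sums over other genes were made.

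**Figure D3:**
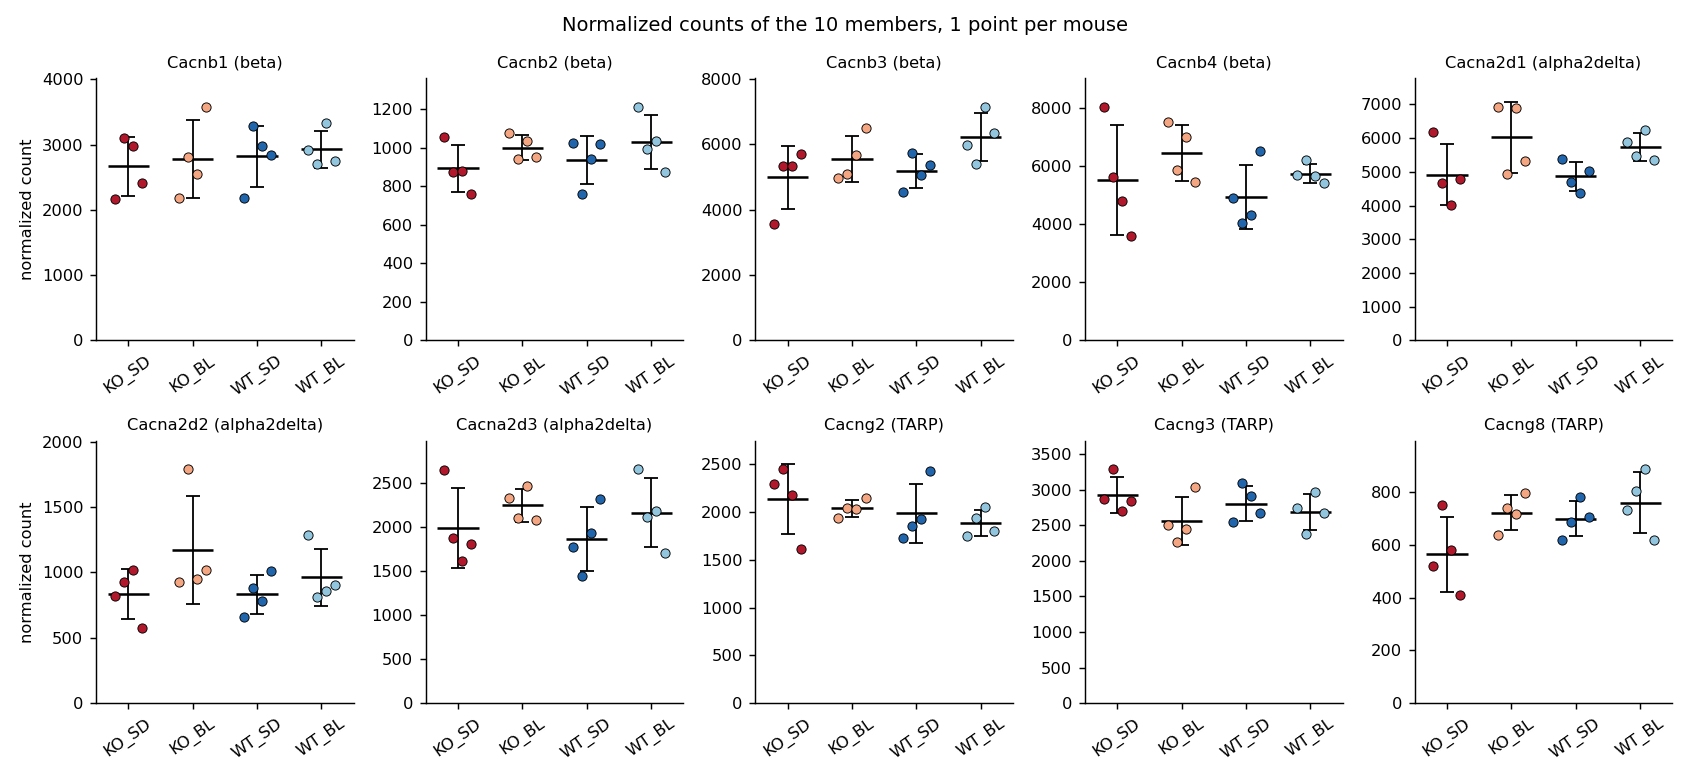
Normalized counts (vertical axis, from 0) of the 10 members in KO_SD, KO_BL, WT_SD and WT_BL, with 1 point per mouse and the mean ± SD in black. The groups overlap for every member, and Cacna2d2 has 1 high KO_BL mouse at 1790.

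Among the alpha2delta genes, Cacna2d1 had the smallest p of the 10 members over both genotypes. Its protein is a receptor for the drug gabapentin and for thrombospondins, which astrocytes release to promote synapses. Cacna2d1 had 6191, 4678, 4023 and 4796 normalized counts in KO_SD 1 to 4 and 6940, 4927, 6890 and 5334 in KO_BL 1 to 4. It had 5373, 4703, 4376 and 5040 in WT_SD 1 to 4 and 5897, 5469, 6247 and 5359 in WT_BL 1 to 4. In wild type mice the highest WT_SD mouse exceeded the lowest WT_BL mouse by a narrow margin, 5373 against 5359, and the other 3 WT_SD mice were below all WT_BL mice. In BK-deficient mice 3 of the 4 KO_SD mice were below all KO_BL mice, and KO_SD 1 lay among them. The log2 difference of Cacna2d1 was -0.29 ± 0.164 (SE) in BK-deficient mice, -0.24 ± 0.0861 in wild type mice and -0.27 ± 0.0915 over both. Over both genotypes this is a difference of -16.8% with a 95% interval of -27.2 to -4.94%. The limma adjusted p of Cacna2d1 was 0.491, 0.186 and 0.0669, with unadjusted p = 0.0175 in wild type mice and 0.00955 over both.

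The value of Cacna2d1 over both genotypes passed the threshold under 6 of 30 alternatives. It was -0.26 with adjusted p = 0.042 by DESeq2 and -0.27 with adjusted p = 0.00534 once a trend on GC content was removed, in a range of 0.00534 to 0.136 over the 30. By limma it was -0.31 with adjusted p = 0.0472 without KO_BL 2, -0.32 with 0.0194 without KO_SD 1, and -0.33 with 0.0246 without KO_SD 1 and KO_SD 4. Without these 2 libraries the value in BK-deficient mice alone was -0.46 with adjusted p = 0.173. Over the 16 libraries, the genes whose log2 values were most like those of Cacna2d1 were Rab11fip2 (r = 0.949), Il1rapl1 (r = 0.943) and Dlgap1 (r = 0.934), out of 14575 genes compared. The points share library composition and sleep condition. Rab11fip2 and Il1rapl1 have 42.9% and 39.9% GC in 3790 and 4390 bases, near the 41.8% and 3370 bases of Cacna2d1, and Dlgap1 has 52.0% in 3470 bases.

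Cacna2d2, mutated in the ataxic ducky mouse, had 823.2, 928.1, 1019 and 574.1 normalized counts in KO_SD 1 to 4 and 924.3, 1790, 947.7 and 1022 in KO_BL 1 to 4. It had 658.5, 877.7, 779.7 and 1012 in WT_SD 1 to 4 and 1285, 814.5, 855.3 and 901.4 in WT_BL 1 to 4. KO_BL 2 was the highest of the 16 mice, with WT_BL 1 next, and the groups overlapped in both genotypes. Cacna2d2 differed on the log2 scale by -0.46 ± 0.236 (SE) in BK-deficient mice, -0.21 ± 0.159 in wild type mice and -0.33 ± 0.153 over both (limma adjusted p = 0.452, 0.534 and 0.161). Without KO_BL 2 the first was -0.24 and the last -0.22, and without KO_SD 1 and KO_SD 4 they were -0.21 and -0.21. The 95% interval of Cacna2d2 over both genotypes was -36.4 to -0.847%.

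Cacna2d3, needed for normal hearing and pain sensing in mice, had 2647, 1880, 1611 and 1805 normalized counts in KO_SD 1 to 4 and 2336, 2106, 2464 and 2077 in KO_BL 1 to 4. It had 1778, 1443, 1933 and 2315 in WT_SD 1 to 4 and 2658, 2112, 2179 and 1711 in WT_BL 1 to 4. KO_SD 1 was above the 4 KO_BL mice and the other 3 KO_SD mice were below them. The log2 difference of Cacna2d3 was -0.20 ± 0.156 (SE) in BK-deficient mice, -0.22 ± 0.153 in wild type mice and -0.21 ± 0.112 over both (limma adjusted p = 0.614, 0.493 and 0.233). The first was -0.36 and the last -0.28 without KO_SD 1 and KO_SD 4. The summed FPKM of the 3 alpha2delta genes was 114 ± 18.1 in KO_SD and 141 ± 14.0 in KO_BL, and 113 ± 8.76 in WT_SD and 133 ± 10.2 in WT_BL (SD, n = 4 each). The ranges overlapped in both genotypes, in wild type narrowly (105 to 122 in WT_SD and 121 to 145 in WT_BL).

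The TARP genes divided. Cacng8, whose protein is the main TARP of the hippocampus and is present in cortex, had 519.8, 750.6, 583.2 and 409.9 normalized counts in KO_SD 1 to 4 and 637, 740, 719.9 and 796.3 in KO_BL 1 to 4. It had 621.1, 688.8, 781.6 and 707.5 in WT_SD 1 to 4 and 732.2, 807.2, 888.2 and 618.4 in WT_BL 1 to 4. In the BK-deficient mice, 3 of 4 KO_SD mice were below all KO_BL mice, with KO_SD 4 lowest, and the wild type groups overlapped widely. The log2 difference of Cacng8 was -0.38 ± 0.175 (SE) in BK-deficient mice, -0.11 ± 0.117 in wild type mice and -0.25 ± 0.11 over both (limma adjusted p = 0.41, 0.652 and 0.147). Without KO_SD 1 and KO_SD 4 it was -0.12 in BK-deficient mice and -0.12 over both, and with a trend on GC content removed it was 0.09 in wild type mice. Cacng8 has the highest GC content of the members, 66.2%. Summed hippocampus markers were 1988 to 3449 in KO_SD, 1374 to 2328 in KO_BL, 1802 to 4691 in WT_SD and 1554 to 2652 in WT_BL, with 0 of the 11 genes at 0 in any group, and their part in the values of Cacng8 was not tested.

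Cacng3, the highest in FPKM of the 3 TARP members, had 2875, 3290, 2706 and 2842 normalized counts in KO_SD 1 to 4 and 2501, 2269, 2444 and 3045 in KO_BL 1 to 4. It had 2549, 3103, 2907 and 2671 in WT_SD 1 to 4 and 2740, 2374, 2976 and 2668 in WT_BL 1 to 4. All KO_SD mice were above 3 of the 4 KO_BL mice, and the wild type groups overlapped widely. Cacng3 differed on the log2 scale by 0.20 ± 0.125 (SE) in BK-deficient mice, 0.06 ± 0.0919 in wild type mice and 0.13 ± 0.0743 over both (limma adjusted p = 0.545, 0.768 and 0.264). Cacng2, which encodes stargazin and is disrupted in the stargazer mouse, had 1616 to 2449 normalized counts in KO_SD, 1935 to 2152 in KO_BL, 1730 to 2428 in WT_SD and 1748 to 2049 in WT_BL. Its log2 difference was 0.05 ± 0.14 (SE), 0.07 ± 0.106 and 0.06 ± 0.0854 in the same order (limma adjusted p = 0.91, 0.79 and 0.696), and the 95% interval over both genotypes was -8.06 to 17.9%. The sign of Cacng2 turned to -0.02 in BK-deficient mice without KO_SD 2 and to -0.03 in wild type mice without WT_SD 4. Cacng2 was 0.18 in BK-deficient mice and 0.11 over both without KO_SD 1 and KO_SD 4. The summed FPKM of the 3 TARP members was 138 ± 15.7 in KO_SD, 131 ± 12.6 in KO_BL, 138 ± 9.17 in WT_SD and 135 ± 7.79 in WT_BL.

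In BK-deficient against wild type mice, the members were likewise not called. By limma, 0 of 10 members passed at baseline, where 2 of 14341 genes (0.0139%) did, 0 after sleep deprivation, where 0 of 14280 genes (0%) did, and 0 with sleep condition in the model, where 0 of 14604 genes (0%) did. At an unadjusted p below 0.05, the members counted 0 at baseline (2.75% of all genes), 0 after sleep deprivation (1.62%) and 0 with sleep condition in the model (3.34%). Groups did not overlap for 0 members at baseline (1.78% of all genes) and 0 after sleep deprivation (1.35%). edgeR and DESeq2 called 0 members in each of the 3. The authors' deposited table gave every member a false discovery rate of 0.9999 or more in both genotype comparisons. At baseline the log2 differences, knockout minus wild type, ran from -0.16 ± 0.108 (SE) for Cacnb3 to 0.25 ± 0.219 for Cacna2d2, which was 0.02 without KO_BL 2. After sleep deprivation they ran from -0.34 ± 0.174 for Cacng8 to 0.12 ± 0.234 for Cacnb4, which was -0.08 without KO_SD 1. Cacng8 was -0.08 without KO_SD 1 and KO_SD 4 and -0.19 without KO_SD 4 alone. With sleep condition in the model they ran from -0.20 ± 0.11 for Cacng8 to 0.14 ± 0.133 for Cacnb4, with limma adjusted p of 0.977 or more. Without KO_SD 1 and KO_SD 4 the value of Cacng8 was -0.07, and it was -0.12 without KO_SD 4. That of Cacnb4 was 0.05 without KO_SD 1 and 0.23 without KO_SD 4. With sleep condition in the model, the 95% interval of each of the 10 members lay within a 1.5-fold change in either direction. Within a single condition some intervals reached past it. They were -15.5 to 66.6% for Cacna2d2 at baseline, and -23.9 to 55.7% for Cacnb4 and -39.3 to 3.41% for Cacng8 after sleep deprivation.

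Cacna2d3 lies on chromosome 14 at 28904943 to 29721864 (GRCm38), 4.89 Mb from Kcnma1. Knockout minus wild type, the log2 difference of Cacna2d3 was 0.07 ± 0.12 (SE) in undisturbed mice and 0.08 ± 0.182 in sleep-deprived mice, with limma adjusted p = 0.982 and 1. The sign at baseline turned to -0.04 without WT_BL 4. After sleep deprivation it turned to -0.03 without WT_SD 2, -0.06 without KO_SD 1 and -0.08 without KO_SD 1 and KO_SD 4. The other 9 members lie on other chromosomes.

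The difference between the genotypes in the response to sleep deprivation was tested as an interaction over all 16 libraries. It was called by limma for 0 of 10 members and 0 of 14604 genes (0%), and at an unadjusted p below 0.05 for 0 members and 1.1% of all genes. edgeR and DESeq2 called 0 members. The interaction ran from -0.27 ± 0.218 (SE) for Cacng8 to 0.13 ± 0.151 for Cacng3. That of Cacng8 was -0.0099 without KO_SD 1 and KO_SD 4, without KO_SD 4 it was -0.13 and without WT_BL 4 it was -0.17. The intervals were wide, and that of Cacng8 reached from -39.7% to 14.2%.

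Of the 10 members, 6 had an r of at least 0.67 with a measure of library composition. The share of all genes that reach this r is not known here, so the count is not read as particular to the members. Over the 16 libraries, the log2 value of Cacnb4, a transcript of 5440 bases, had r = 0.92 with the gap between long and short genes, and Cacnb2 had 0.83, Cacna2d3 0.75 and Cacna2d1 0.67. Cacnb1 and Cacnb3, with 59.0% and 60.2% GC, had r = 0.87 and 0.75 with the gap between genes of high and low GC content. The other 4 had weaker relations, with r for the GC gap and the length gap of 0.26 and 0.42 for Cacna2d2, -0.06 and 0.43 for Cacng2, 0.30 and -0.30 for Cacng3, and 0.46 and 0.33 for Cacng8. The ratio of Cacnb4 to Cacnb3 in FPKM was 1.14 in KO_SD 1 and 0.316 in KO_SD 4, the highest and lowest of the 16, and 0.354 to 0.763 in the other 14. Among the members, the closest pairs over the 16 libraries were Cacnb2 with Cacna2d3 (r = 0.84) and Cacnb4 with Cacna2d3 (r = 0.77), and Cacnb1 with Cacna2d1 was lowest (r = -0.41). These are descriptions over libraries that share depth, composition and sleep condition. The median gap between long and short genes was -0.106 in KO_SD, 0.119 in KO_BL, -0.064 in WT_SD and 0.028 in WT_BL. Over both genotypes, limma called 0 members with a length trend removed and 1 with a GC trend removed. Beyond such refits, the part of composition in the group differences was not tested.

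**Figure D4:**
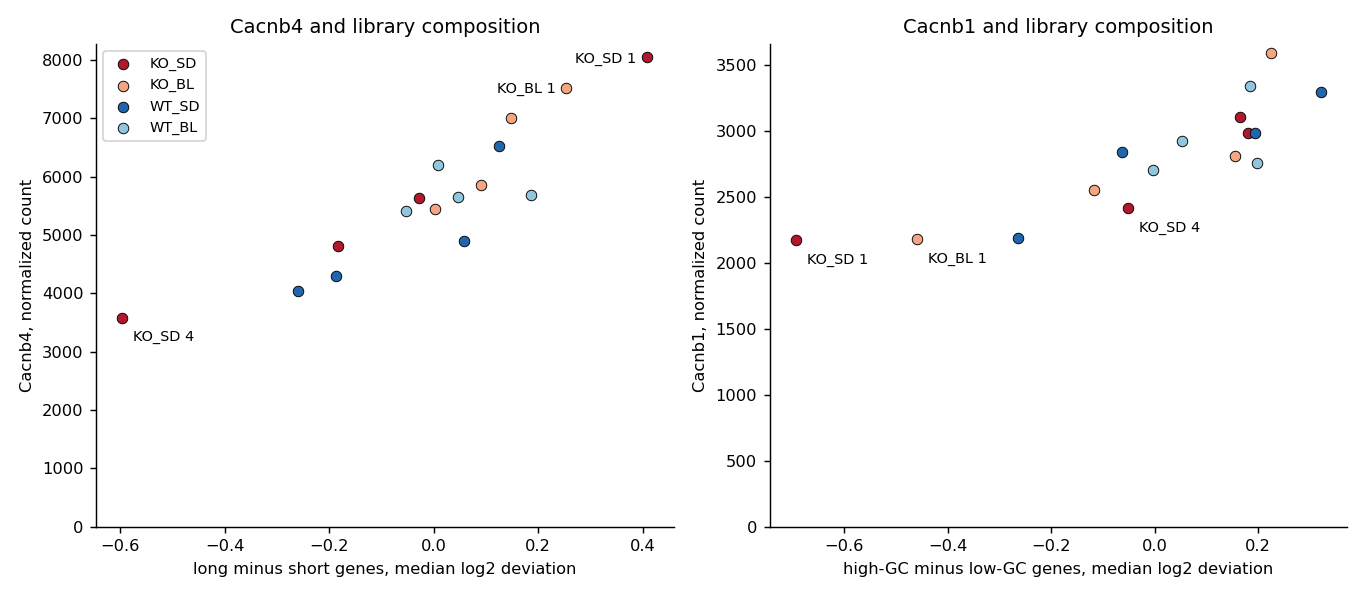
Normalized count of Cacnb4 against the gap between long and short genes (left) and of Cacnb1 against the gap between genes of high and low GC content (right), as median log2 deviations, with 1 point per library coloured by group. KO_SD 1, at 8054, and KO_SD 4, at 3584, hold both ends of Cacnb4.

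Some markers of neighbouring tissue and of cell types differed with sleep condition, in a fit over both genotypes where 11.7% of all genes passed by limma. The 6 thalamus markers split into 3 higher and 3 lower. Summed striatum markers (11 of 11 genes above 0 in each group) were 5444 to 12631 in KO_SD and 6624 to 19935 in KO_BL, and 4833 to 7341 in WT_SD and 6171 to 25572 in WT_BL. All 11 had a lower value after sleep deprivation over both genotypes, with 8 passing by limma. Of 5 blood markers 2 fell, and of 10 tested hippocampus markers 3 rose, as did 1 of 6 oligodendrocyte, 2 of 6 astrocyte, 3 of 6 cerebellum and 1 of 6 thalamus markers. Inhibitory neurons (8 markers), endothelium (5) and excitatory neurons (10) each had 1 marker that rose and 1 that fell, and 0 of 6 microglia markers passed or were below an unadjusted p of 0.05. In the genotype comparisons and the interaction, 0 markers passed by limma. The summed excitatory neuron markers, given above, overlapped between KO_SD and KO_BL but not between WT_SD and WT_BL, where 10.3% of all single genes did not overlap. These sums were not tested. The part of these markers in the members' values was not tested.

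Of 52 genes in 7 lists of partners and relatives, 49 were tested, and over both genotypes 8 passed by limma, 6 higher and 2 lower after sleep deprivation, against 11.7% of all genes tested. In BK-deficient mice 1 passed (Thbs4). In wild type mice 1 passed (Cacng6, which met the filter there only through its baseline mice). In the genotype comparisons and the interaction 0 passed, and 1 to 3 were below an unadjusted p of 0.05 of 48 or 49 tested.

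Among 8 tested ligands and partners of alpha2delta subunits, 1 rose, 0 fell and 7 did not pass over both genotypes. Thbs4, which encodes a thrombospondin, the family of ligands of the Cacna2d1 protein, had 209.3, 254.9, 274.3 and 244.5 normalized counts in KO_SD 1 to 4 and 120.3, 53.68, 49.61 and 91.52 in KO_BL 1 to 4. It had 282.6, 358, 412.6 and 521.5 in WT_SD 1 to 4 and 144.3, 204.4, 40.3 and 168.6 in WT_BL 1 to 4. Every sleep-deprived mouse was above every baseline mouse, narrowly across genotypes (209.3 in KO_SD 1 against 204.4 in WT_BL 2). Within a genotype, groups did not overlap for 8.23% of all genes in BK-deficient and 10.3% in wild type mice. Thbs4 rose by a log2 difference of 1.72 ± 0.268 (SE) in BK-deficient mice and 1.70 ± 0.267 over both, with limma adjusted p = 0.0355 and 0.000885. In wild type mice its difference was 1.68 ± 0.452 with limma adjusted p = 0.112. The call in BK-deficient mice was lost without KO_BL 2, KO_BL 3, KO_BL 4, KO_SD 2, KO_SD 3 or KO_SD 4, with adjusted p up to 0.136. The list median over both genotypes was -0.05.

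Among 6 tested genes of RGK GTPases and Stac adaptors, 4 rose, 0 fell and 2 did not pass over both genotypes, with a list median of 0.65. Gem and Rrad encode small GTPases that bind beta subunits and curb calcium channel current. Gem rose by 0.65 ± 0.187 (SE, limma adjusted p = 0.0326), averaging 59.2 ± 30.0 normalized counts in KO_SD and 33.0 ± 7.74 in KO_BL, and 45.4 ± 5.99 in WT_SD and 30.4 ± 5.44 in WT_BL. Rrad rose by 0.64 ± 0.188 (limma adjusted p = 0.0348), averaging 35.2 ± 4.09 in KO_SD and 23.0 ± 4.98 in KO_BL, and 31.0 ± 11.1 in WT_SD and 18.9 ± 5.51 in WT_BL. Stac and Stac3 encode adaptors that bind the pore itself rather than the beta subunit, Stac3 being known from skeletal muscle. Stac3 rose by 1.02 ± 0.251 (limma adjusted p = 0.0153), averaging 76.9 ± 27.1 in KO_SD and 34.5 ± 9.33 in KO_BL, and 72.2 ± 14.6 in WT_SD and 40.8 ± 20.3 in WT_BL. Stac rose by 0.88 ± 0.237 (limma adjusted p = 0.0243), averaging 45.3 ± 21.8 in KO_SD and 23.4 ± 8.82 in KO_BL, and 48.1 ± 7.37 in WT_SD and 27.6 ± 12.5 in WT_BL. All 4 had low counts beside the members. Calls over both genotypes were lost when some single mice were left out: for Gem 7 of 16 (WT_BL 2 and 3, WT_SD 1 and 3, KO_BL 3 and 4, KO_SD 3), with limma adjusted p up to 0.0662. For Rrad they were also 7 (WT_BL 1, WT_SD 2 and 3, KO_BL 1 and 3, KO_SD 2 and 3), with limma adjusted p up to 0.0725, and for Stac 1 (WT_SD 3, 0.053). Stac3 held in all 30 alternatives run.

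**Figure D5:**
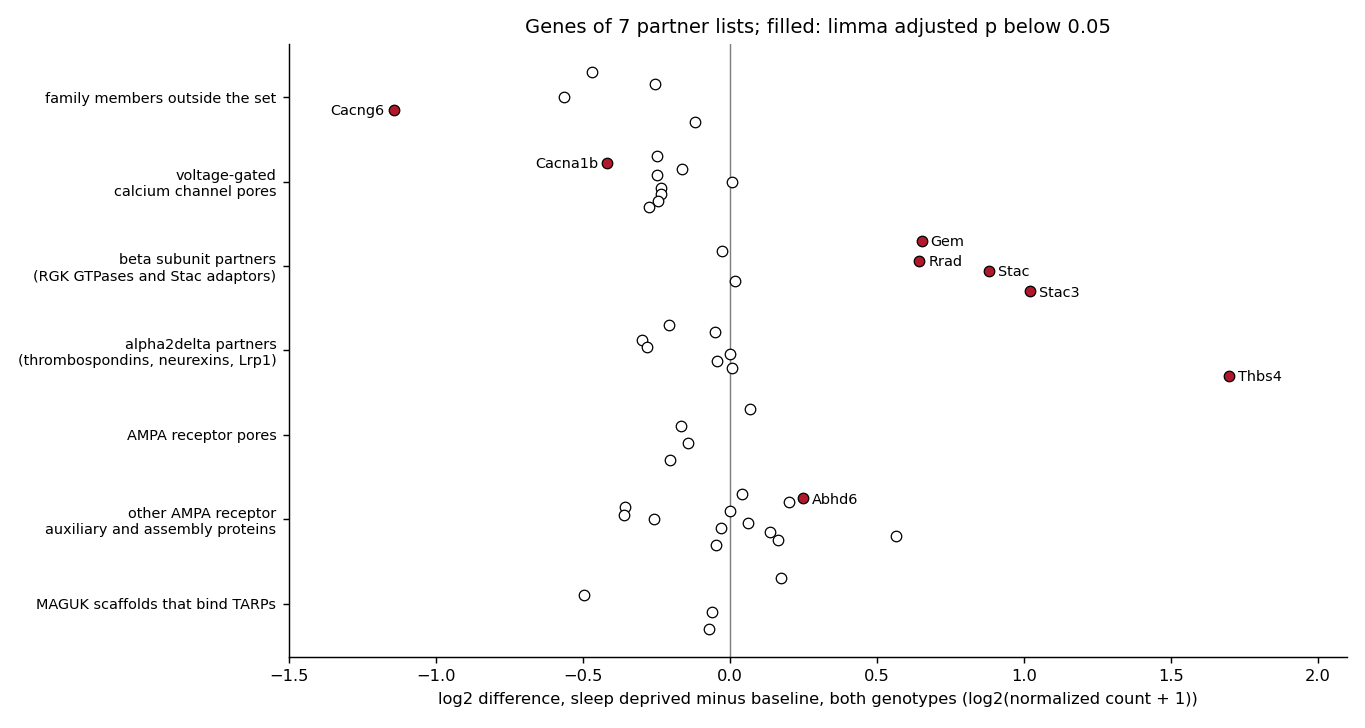
Log2 difference over both genotypes, sleep deprived minus baseline (horizontal axis, log2(normalized count + 1)), of the tested genes in each of 7 lists of partners and relatives, with called genes filled and named. Thbs4 lies farthest right at 1.70 and Cacng6 farthest left at -1.14.

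Of 9 tested pore genes of voltage-gated calcium channels, 0 rose, 1 fell and 8 did not pass over both genotypes. The list median was -0.25, and 8 of the 9 had a negative difference. Cacna1b, the pore of N-type channels at presynaptic terminals, had 2560, 2457, 1877 and 1214 normalized counts in KO_SD 1 to 4 and 2568, 2682, 2924 and 2813 in KO_BL 1 to 4. It had 2118, 2151, 2214 and 2414 in WT_SD 1 to 4 and 3058, 2530, 3074 and 2617 in WT_BL 1 to 4. Every sleep-deprived mouse of a genotype was below every baseline mouse of that genotype, with KO_SD 4 lowest. In BK-deficient mice the margin was narrow, 2560 in KO_SD 1 against 2568 in KO_BL 1. Groups did not overlap for 8.23% of all genes in BK-deficient and 10.3% in wild type mice. Cacna1b fell by -0.42 ± 0.118 (SE) over both genotypes (limma adjusted p = 0.0304). Without KO_SD 1 and KO_SD 4 its difference was -0.34 with limma adjusted p = 0.00599, in a range of 0.00599 to 0.061 over 30 alternatives. The call was lost without WT_BL 1, WT_BL 3, WT_SD 2, WT_SD 3, KO_BL 3, KO_BL 4 or KO_SD 3.

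Of 5 tested relatives of the members outside the 10, 0 rose, 1 fell and 4 did not pass, with a list median of -0.47. Cacng6, a gamma subunit gene of muscle that is not a TARP, had few reads, with 8.232, 8.876, 10.07 and 30.87 normalized counts in KO_SD 1 to 4 and 44.54, 26.43, 21.26 and 15.13 in KO_BL 1 to 4. It had 7.997, 9.031, 6.926 and 9.298 in WT_SD 1 to 4 and 21.86, 22.83, 32.08 and 15.72 in WT_BL 1 to 4. The wild type groups did not overlap, and KO_SD 4 lay among the KO_BL mice. Every WT_SD value was below the filter value of 10, so Cacng6 entered the wild type test only through its higher WT_BL values. Its lack of overlap there was therefore a condition of being tested and is no separate evidence. Leaving out a WT_BL mouse removes the gene from that test. Cacng6 fell by -1.34 ± 0.281 (SE) in wild type mice and by -1.14 ± 0.27 over both (limma adjusted p = 0.0441 and 0.0126). The wild type call was lost without WT_SD 1, WT_SD 2 or WT_SD 3 (limma adjusted p up to 0.157), and the call over both held in the 29 alternatives run. These differences are on the log2(normalized count + 1) scale, which understates changes at such counts.

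On the AMPA receptor side, 0 of 4 pore genes and 0 of 4 scaffold genes of the MAGUK family, which anchor TARPs, passed over both genotypes, and 1 of 13 other auxiliary and assembly genes rose. That gene, Abhd6, encodes an enzyme that breaks down an endocannabinoid and also limits AMPA receptor delivery. Abhd6 rose by 0.25 ± 0.0766 (SE, limma adjusted p = 0.0443), averaging 1226 ± 178 normalized counts in KO_SD and 1011 ± 133 in KO_BL, and 1130 ± 73.6 in WT_SD and 969 ± 39.1 in WT_BL. It failed the threshold under 17 of 30 alternatives, with limma, edgeR or DESeq2 adjusted p from 0.0152 to 0.109. Leaving out 1 mouse ended the call for every mouse but KO_BL 1, KO_SD 2 and KO_SD 3. Gria4 and Gria3, pores of the receptor, differed by -0.20 ± 0.0878 and -0.14 ± 0.0869 (limma adjusted p = 0.136 and 0.293). The scaffold genes Dlg2 and Dlg1 differed by -0.50 ± 0.192 and 0.17 ± 0.0794 (limma adjusted p = 0.0975 and 0.158). Without KO_SD 1, Gria4 at -0.26, Gria3 at -0.21 and Dlg2 at -0.62 passed (limma adjusted p = 0.0351, 0.0353 and 0.0225), in ranges of 0.0295 to 0.228, 0.0353 to 0.481 and 0.0225 to 0.166 over 30 alternatives. List medians were -0.15 for the pores, -0.07 for the scaffolds and 0.04 for the other proteins.

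Some members share exonic bases with genes on the opposite strand, and the sources used here do not say whether the counting used strand. The longest shared exon stretch was 1170 bases between Cacnb4 and A430018G15Rik, 390 between Cacnb2 and Gm10849, 323 between Cacng2 and A730060N03Rik, 82 between Cacna2d2 and Gm17141 and 80 between Cacnb1 and Gm11629. Cacng8 shares 91 bases with a microRNA gene on the same strand. Unless strand was used, reads from the opposite-strand stretches cannot be assigned to 1 partner, and for Cacng8 strand would not separate the pair. The values of those 6 members carry that uncertainty.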

How the data were processed

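Libraries of total RNA from 16 mouse cortices were analysed from 4 deposited sheets of 22880 gene rows. The submitters' processing notes name the builds GRCm38 and mm10 and, without giving roles, edgeR and RSEM 1.2.19. The values used are the authors' normalized counts (a signal that the authors scaled library by library) and the authors' FPKM, both named so in the deposited headers. The sheets also hold the authors' log2 ratio, p-value and FDR, and the GC fraction of each gene as deposited by the authors. The 48 other per-sample columns, FPKM of the other sheets, were not used.

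In each library 100% of values of 20 reads or fewer were whole multiples of a step within 0.1 read, which gave whole reads and the depths stated above, with an alternative count test on them. The main test was limma 3.58.1 in R 4.3.3, with trend and robust options, on log2(normalized count + 1) for genes with at least 10 in at least 4 libraries, p adjusted by Benjamini-Hochberg over all genes tested. The 4 comparisons within a genotype or sleep condition used 8 libraries, and the pooled fits and the interaction used 16, with knockout libraries from the knockout sheet and wild type from the wild type sheet, whose factors differed by at most 0.267%. The scripts were tested on simulated data. Alternatives included edgeR 4.0.16 and DESeq2 1.42.0 on recovered reads. Figures used Python 3.11.15 and matplotlib 3.10.9.

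Genes named are Kcnma1, the 10 members, each partner gene that passed in any comparison and otherwise up to 2 per list with the smallest p over both genotypes, and the 3 genes most like Cacna2d1 over libraries. Marker genes are given as counts and sums. The members and lists were chosen with earlier results of these data known. All pairs of replicates differed beyond sampling noise, with chi-square per degree of freedom of at least 7.94. Positions are from GENCODE on GRCm38 and sequences from RefSeq, matched by symbol for 10 of 10 members.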

Additional observations from a re-analysis of the deposited data

Results flagged for a closer look

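The 10 members and the 8 partner genes that passed were checked for a mouse far from the other 3 of its group, in 72 groups of 4. In 2 groups the gap to the nearest mouse, as a share of the range, was above Dixon's critical value for 4 samples, and chance flags about 1 in 20 groups. Cacna2d2 had 1790 normalized counts in KO_BL 2, the highest of its group, with a share of 0.887. KO_BL 2 also had the highest summed striatum markers of its group, 19935, and their part in the value of Cacna2d2 was not tested. Cacng6 had 30.87 normalized counts in KO_SD 4, the highest of its group, with a share of 0.919.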

How the results depend on the processing

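Genes called for sleep deprivation in BK-deficient mice (33) numbered 309 by DESeq2, 58 with a length trend removed, 78 with that and the replicate block, 94 with a GC trend removed, 218 in 1 model of 16 libraries, 142 without KO_SD 1 and KO_SD 4, and 0 to 70 leaving out 1 mouse. In wild type mice (194) they numbered 102 without trend or robust step, 663 by DESeq2, 456 with the GC trend removed, 79 in 1 model of 16 libraries, and 46 to 508 leaving out 1 mouse. Over both genotypes (1705) they numbered 2684 with the GC trend removed and 1024 to 2318 leaving out 1 mouse. Genotype calls at baseline (2) numbered 0 without trend or robust step, 1 by edgeR, 1 in 1 model and 0 to 2 leaving out 1 mouse. Those with sleep condition in the model (0) numbered 6 by DESeq2, and interaction calls (0) numbered 1 with a pseudocount of 5 and 1 by DESeq2. Members called over both genotypes (0) numbered 1 by DESeq2, 1 with the replicate block, 1 with the GC trend removed, 1 without KO_SD 1 and KO_SD 4, and 0 to 2 leaving out 1 mouse, and in wild type mice 0 to 1. The cause of these moves was not tested.

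Signs turned with the GC trend removed for Cacnb1 (0.0020 in BK-deficient mice, 0.021 in wild type, 0.0096 over both) and Cacng8 (0.086 in wild type, 0.019 for knockout minus wild type with sleep condition in the model). Without KO_SD 1 and KO_SD 4 they turned for Cacnb1 (0.15 in BK-deficient mice, 0.023 over both) and Cacna2d3 (-0.082 for genotype after sleep deprivation). Leaving out 1 mouse, Cacnb1 ran from -0.16 to 0.079 in BK-deficient mice, -0.14 to 0.054 in wild type and -0.11 to 0.0022 over both. Cacng2 ran from -0.021 to 0.18 in BK-deficient mice and -0.034 to 0.13 in wild type. For knockout minus wild type, Cacna2d3 ran from -0.041 to 0.17 at baseline and -0.064 to 0.19 after sleep deprivation, where Cacnb4 ran from -0.079 to 0.31 and Kcnma1 from -0.56 to 0.18.

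The GC trend, the sheet choice and the removal of KO_SD 1 and KO_SD 4 were chosen after seeing the data. Same-numbered mice did not all deviate together (correlations of -0.421 to 0.411). The labels do not state whether the replicate numbers pair mice, and these mixed correlations cannot decide it. The main test therefore had no replicate block. The replicate block gave 47, 230, 1990, 2, 0, 0 and 0 calls for sleep deprivation in BK-deficient, wild type and both, genotype at baseline, after sleep deprivation and in the model, and the interaction. With the block, Cacna2d1 over both was -0.27 with limma adjusted p = 0.0388, in a range of 0.00534 to 0.136 over alternatives, and Cacng6 in wild type lost its call at 0.0693, in a range of 0.0162 to 0.157. With 4 mice a group, intervals of single members in BK-deficient mice reached past 1.5-fold for Cacnb4, Cacna2d1, Cacna2d2 and Cacng8.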
